A study of Mus musculus with 67 samples.

Results

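The genes described here are 9 surface molecules through which T cells receive or give costimulatory signals. They comprise the TNF receptor family members Tnfrsf4, Tnfrsf9, Tnfrsf18, Cd27, Tnfrsf1b and Tnfrsf14, the CD28 family receptors Icos and Cd28, and the TNF family ligand Cd40lg. They were chosen by name as a family and not by a threshold on any measured value, and all 9 were found among the 24471 genes of the second experiment and among the 24421 symbols of the pilot experiment. The choice was made with earlier results of these data known.

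The study sorted CD4+ T cells from the mouse brain to ask how a calorie-rich diet affects T cells that reside in the hypothalamus. In the second experiment, 59 libraries came from T cells of the hypothalamus or of the remaining brain, of which 29 were activated conventional T cells (Tconv, sorted as CD4+CD25−Foxp3GFP−CD44hi CD62Llow) and 30 were regulatory T cells (Tregs). Each library was 1 pool of mice, named here by the range of animal numbers in its label. The pilot experiment held 8 hypothalamic libraries, with 1 library for each condition. Mice of the second experiment were Balb/c or C57Bl/6J and received either a high-fat, high-sugar diet (HFHS) from 6 weeks of age or a standard diet (SD), which gave 16 groups of 2 to 4 pools. Balb/c mice were female and C57Bl/6J mice were male, so that strain and sex cannot be told apart. The X-inactivation transcript Xist had a median of 197 CPM in Balb/c and 0.161 CPM in C57Bl/6J Tconv from the rest of the brain, and the Y-linked gene Ddx3y had medians of 0 and 325 CPM. In the pilot experiment, Foxp3GFP reporter mice on the Balb/c background received HFHS or SD for 16 weeks, and from 9 pooled females per diet a CD25−CD44low+int fraction of CD4+ cells, called CD44low T cells here, was sorted beside CD25+ Tregs that carried the reporter. Also in the pilot, genetically obese ob/ob mice, which lack leptin, and C57Bl/6J wild-type (WT) mice were each pooled from 7 females and sorted into CD4+CD25− and CD4+CD25++ T cells.

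Depth was uneven. Total estimated counts per library in the second experiment ranged from 1724149 to 38482277 with a median of 17804184, and those of the pilot from 99925 to 5334511. Levels are given as counts scaled to the library total (CPM), and a count of up to 3 is taken as the floor of detection, which covers counting error only.

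T cells need a costimulatory signal beside the antigen receptor to expand and survive. Cd28 gives that signal in resting T cells, and Icos and several TNF receptors take over after activation, most of them by recruiting TRAF adaptors that switch on NF-kB. Tregs, which restrain immune responses, are known for carrying Tnfrsf4 and Tnfrsf18 at high levels, whereas Cd40lg is the signal by which activated conventional helper T cells stimulate antigen-presenting cells.

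Among the Treg libraries, 4 from the hypothalamus stood apart, with Foxp3, the transcription factor that defines Tregs, under 5 CPM. Foxp3 was at 0.0977 CPM in the Balb/c SD pool 32_36, at 0.429 CPM in the C57Bl/6J HFHS pool 06_10, at 1.19 CPM in the C57Bl/6J SD pool 11_15 and at 3.48 CPM in the C57Bl/6J SD pool 43_47, the last with the lowest total of the second experiment. Across all 16 hypothalamic Treg libraries, the median number of genes above 10 counts was 4478, compared with 8803 in Tregs of the rest of the brain. Because these libraries enter the groups as labelled, the tests on hypothalamic Tregs and the TPM order are given with and without them, a comparison chosen after seeing the data. That comparison leaves out Treg libraries by the level of a Treg gene. It can therefore favour differences between Tregs and Tconv in genes whose levels follow Foxp3.

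The lists of cell type markers differed between the same libraries. The Treg list (4 of 4 genes measured) summed to medians of 1632 CPM in hypothalamic Tregs and 2222 CPM in Tregs of the rest of the brain, with Ctla4 the most abundant gene, against 112 and 197 CPM in the matching Tconv. In pool 11_15 this list summed to 35.1 CPM, with Il2ra at 0, and the T cell list (5 of 7 genes measured) summed to 167 CPM against a median of 6876 CPM in hypothalamic Tregs. The other 3 libraries low in Foxp3 held other Treg markers, with the Treg list at 3211 CPM in pool 32_36, 2395 CPM in pool 06_10 and 1783 CPM in pool 43_47, and Il2ra at 0.0977, 666 and 757 CPM. The highest endothelial sum of any library was 7961 CPM, in a hypothalamic Treg library (4 of 4 genes, most abundant Slco1a4). Medians of the endothelial list were 1.87 CPM in hypothalamic Tregs and 94.9 CPM in Tregs of the rest of the brain. The matching Tconv had medians of 35.3 and 25.3 CPM. Transcripts of CD8 T cells (2 of 2 genes, most abundant Cd8b1) had medians of 276 CPM in Tconv from the rest of the brain and 218 CPM in hypothalamic Tconv, but 21.5 and 0.0688 CPM in the matching Tregs. The macrophage list (6 of 6) had medians of 930.1 and 723 CPM in the same Tconv, with Ly6c2 most abundant, and 118 and 141 CPM in Tregs, with Ccr2 most abundant. In Tconv these sums came from Ly6c2 and Ccr2, while Lyz2, Mrc1, Cd14 and Adgre1 had medians of 0 to 0.0545 CPM in both tissues. Medians of the oligodendrocyte list (6 of 6, most abundant Cnp) lay between 315 and 412 CPM in the 4 combinations of cell type and tissue, and of this list Mog and Olig1 had medians of 0 in all 4. The B cell, neuron, astrocyte and erythroid lists had medians of 0 to 19.3 CPM. For flow cytometry, the paper gated CD4+ T cells as negative for exclusion markers that include CD8a, CD11b and CD14. The part that the transcripts of these cell type lists had in the results was not tested.

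Levels were compared between genes on the deposited TPM scale, which corrects for transcript length. In Tregs of the rest of the brain, Tnfrsf18 had the highest median (2181 TPM), followed by Tnfrsf4 (1437 TPM), Cd27 (424 TPM) and Tnfrsf9 (401 TPM). Icos (243 TPM), Cd28 (159 TPM), Cd40lg (55.9 TPM) and Tnfrsf1b (55.3 TPM) followed, and the median of Tnfrsf14 was 0. Cd27 exceeded Tnfrsf9 in 10 of 14 libraries and Cd40lg exceeded Tnfrsf1b in 7 of 14, so neither pair was separated beyond the spread between pools. In Tconv of the rest of the brain, Tnfrsf18 (537 TPM) and Cd40lg (484 TPM) led, and Tnfrsf18 was above Cd40lg in 8 of 13 libraries. Below them lay Tnfrsf4 (166 TPM), Icos (138 TPM), Cd28 (127 TPM) and Cd27 (119 TPM), which overlapped one another, and then Tnfrsf1b (11.4 TPM), Tnfrsf9 (3.38 TPM) and Tnfrsf14 (3.20 TPM).

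The hypothalamic libraries kept the leading genes of each cell type on the TPM scale. In hypothalamic Tregs the medians were 1286 TPM for Tnfrsf18, 964 TPM for Tnfrsf4, 228 TPM for Cd27 and 179 TPM for Icos. Cd28 (103 TPM), Tnfrsf9 (87.7 TPM), Tnfrsf1b (34.4 TPM), Cd40lg (0.229 TPM) and Tnfrsf14 (0 TPM) followed. Tnfrsf18 exceeded Tnfrsf4 in 10 of 16 libraries, and Icos exceeded Cd28 in 10 of 16, so these neighbours overlapped. In the 12 libraries left without those low in Foxp3, the medians were 1347 TPM for Tnfrsf18, 964 TPM for Tnfrsf4, 313 TPM for Cd27, 197 TPM for Icos, 128 TPM for Cd28 and 114 TPM for Tnfrsf9, in the same order. Tnfrsf1b (52.9 TPM) and Cd40lg (26.6 TPM) followed, and Tnfrsf14 was again at 0 TPM. In hypothalamic Tconv, Tnfrsf18 (537 TPM) and Cd40lg (509.6 TPM) again stood above Cd28 (144 TPM), Tnfrsf4 (124 TPM), Cd27 (109 TPM) and Icos (108 TPM), and the lowest were Tnfrsf1b (17.3 TPM), Tnfrsf14 (10.4 TPM) and Tnfrsf9 (1.88 TPM). Tnfrsf18 exceeded Cd40lg in 5 of these 16 libraries, against the order of their medians.

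**Figure D1:**
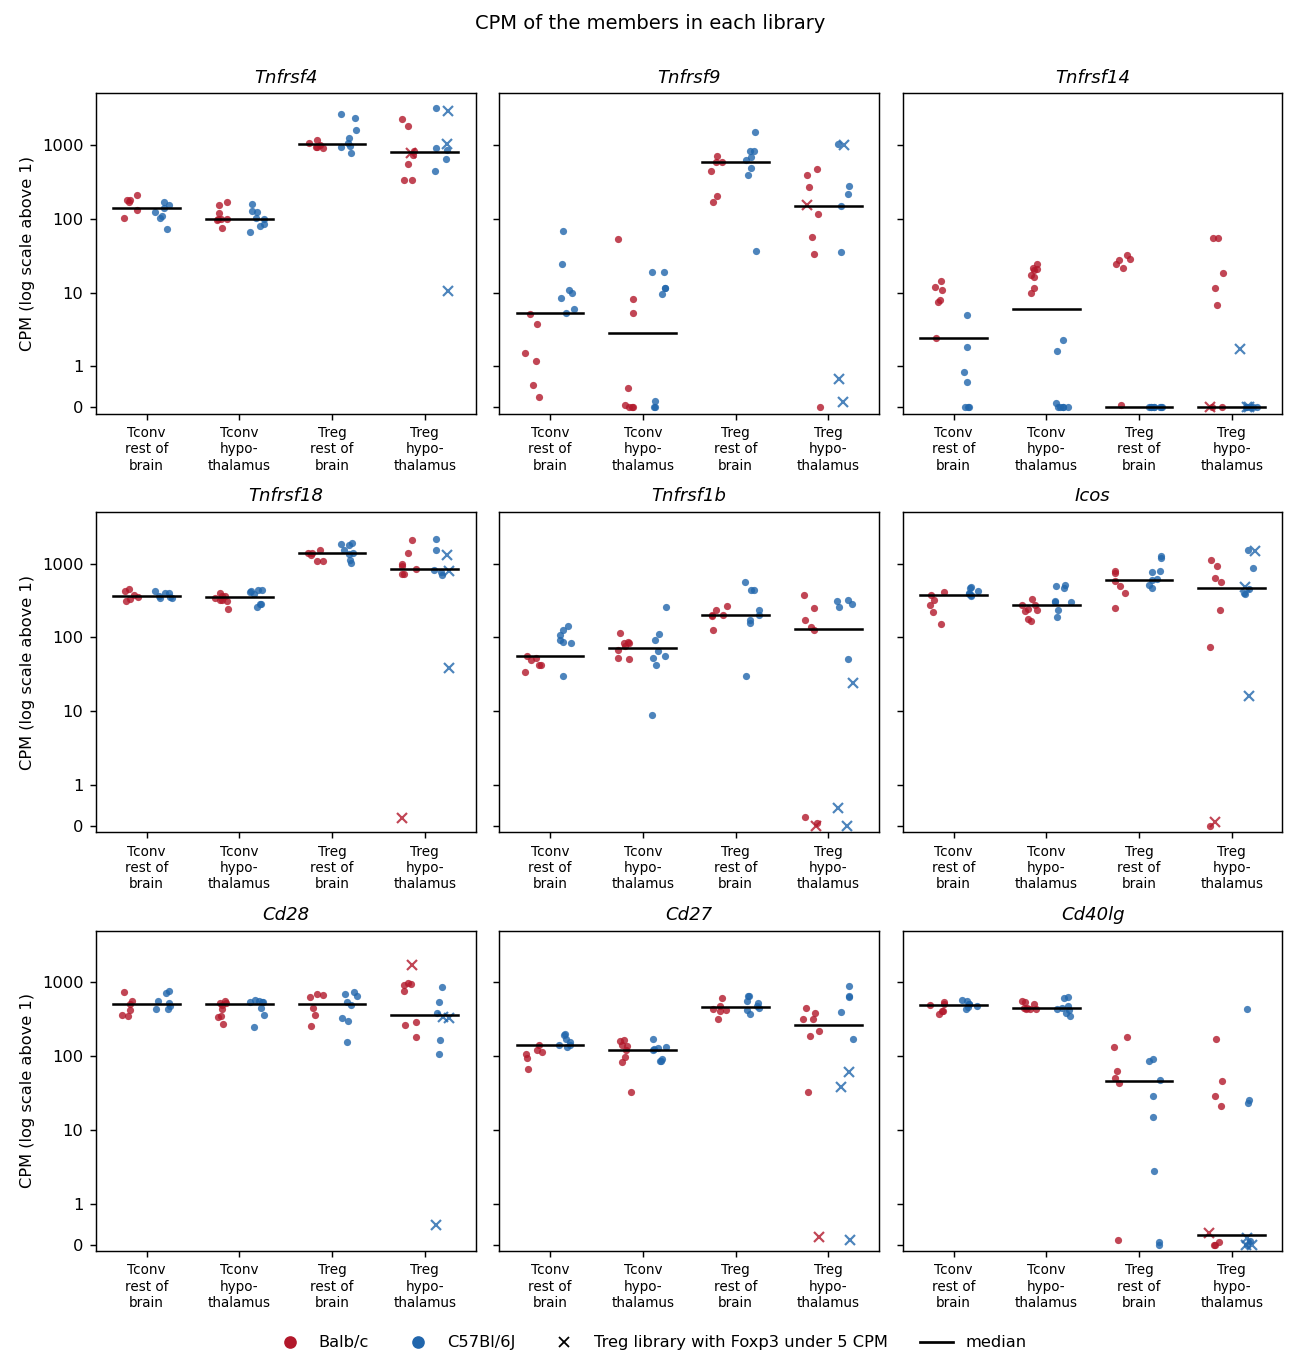
CPM of each gene in each of the 59 libraries of the second experiment, on an axis that is logarithmic above 1, by cell type and tissue. Points are pools coloured by strain, crosses are the 4 hypothalamic Treg libraries with Foxp3 under 5 CPM, and bars are medians; Tnfrsf4 lay at 776 CPM or above in every Treg library of the rest of the brain and at 208 CPM or below in every Tconv library there.

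To ask which of the genes separate Tregs from activated Tconv, both cell types were compared within each tissue with edgeR's quasi-likelihood test, calling genes at a Benjamini-Hochberg adjusted p under 0.05. Tregs of the rest of the brain had 6 of the 9 genes higher and 1 lower, where 15.4% of the 13921 genes tested were called. In the hypothalamus, 3 were higher and 1 was lower, where 13.8% of the 11254 genes tested were called. The calls over all genes leaned toward lower values in Tregs in both tissues, with 563 higher and 1574 lower genes in the rest of the brain and 62 higher and 1490 lower genes in the hypothalamus. The median log2 difference over all genes tested was −0.28 and −0.96 in edgeR, −0.68 and −3.63 in limma-voom, and −0.95 and −4.88 with the pool as a replicate block. In such bulk samples, fewer cells of a type and less RNA per cell cannot be told apart.

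Tnfrsf4 encodes OX40, a receptor of activated T cells that prolongs their survival. Tnfrsf4 ranged from 72.4 to 208 CPM with a median of 141 CPM in Tconv of the rest of the brain (n = 13) and from 776 to 2655 CPM with a median of 1022 CPM in Tregs (n = 14). In the hypothalamus it ranged from 66.9 to 167 CPM in Tconv (median 99.1 CPM, n = 16) and from 10.6 to 3218 CPM in Tregs (median 804 CPM, n = 16). The groups of the rest of the brain did not overlap, and in the hypothalamus every Treg library but pool 11_15 lay above all Tconv libraries. The log2 fold change was 3.13 ± 0.21 (SE; adjusted p = 1.3e-11) in the rest of the brain and 3.24 ± 0.40 (adjusted p = 8.5e-07) in the hypothalamus. Without the 4 libraries low in Foxp3 it was 3.22 ± 0.31 (adjusted p = 1.5e-08), and the lowest Treg library then held 336 CPM, so that the groups no longer overlapped.

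Tnfrsf18 encodes GITR, a costimulatory receptor carried by Tregs and, after activation, by other T cells. Its values lay between 312 and 446 CPM (median 368 CPM) in Tconv of the rest of the brain and between 1019 and 1883 CPM (median 1388 CPM) in Tregs there. Hypothalamic Tconv held 244 to 441 CPM (median 351 CPM), and hypothalamic Tregs held 0.195 to 2156 CPM (median 841 CPM). Tregs and Tconv of the rest of the brain were fully separated, whereas in the hypothalamus 14 of 16 Treg libraries were above and the pools 32_36 and 11_15 were below all Tconv libraries. Its log2 fold change was 1.88 ± 0.11 (adjusted p = 4.5e-13) in the rest of the brain and 1.43 ± 0.43 (adjusted p = 0.0199) in the hypothalamus. Without the 4 libraries low in Foxp3 the hypothalamic value was 1.67 ± 0.19 (adjusted p = 4.3e-07) and the groups no longer overlapped. The hypothalamic call ended when the Balb/c SD Treg pool 37_41 was left out (1.25 ± 0.44, adjusted p = 0.0514) and when the pool was fitted as a replicate block (1.17 ± 0.58, adjusted p = 0.0950).

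Tnfrsf9 encodes 4-1BB, which is induced by antigen receptor signals. In Tconv of the rest of the brain Tnfrsf9 was low but above the floor in 12 of 13 libraries, at 0.265 to 69.1 CPM with a median of 5.36 CPM, while Tregs there held 36.1 to 1486 CPM with a median of 593 CPM. Hypothalamic Tconv held 0 to 52.9 CPM (median 2.86 CPM) and hypothalamic Tregs 0 to 1019 CPM (median 151 CPM). A single Treg library of the rest of the brain reached into the range of Tconv, and in the hypothalamus 11 of 16 Treg libraries exceeded all Tconv libraries. Between the cell types it differed by 6.45 ± 0.61 (adjusted p = 1.4e-08) in the rest of the brain and 5.21 ± 1.26 (adjusted p = 0.00331) in the hypothalamus. It was 5.23 ± 1.25 (adjusted p = 0.00371) in the hypothalamus without the 4 libraries low in Foxp3.

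Cd27 encodes a receptor for CD70 that supports the survival of primed T cells. In the rest of the brain, Cd27 ranged from 66.8 to 199 CPM (median 139.8 CPM) in Tconv and from 320.1 to 658 CPM (median 459 CPM) in Tregs. In the hypothalamus the ranges were 32.3 to 171 CPM (median 121.5 CPM) and 0.119 to 896 CPM (median 266 CPM). The groups were separate in the rest of the brain and overlapped in the hypothalamus, where 11 of 16 Treg libraries were above all Tconv libraries and 3 were below them. Cd27 was called in the rest of the brain (1.80 ± 0.14, adjusted p = 3.1e-10) and not in the hypothalamus (1.30 ± 0.62, adjusted p = 0.200). Without the 4 libraries low in Foxp3 the hypothalamic difference was called as well (1.68 ± 0.36, adjusted p = 0.00134).

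Tnfrsf1b encodes TNFR2, the receptor by which membrane-bound TNF supports Treg expansion. Tnfrsf1b was at 29.6 to 143 CPM (median 55.4 CPM) in Tconv and at up to 563 CPM (median 200.1 CPM) in Tregs of the rest of the brain. In the hypothalamus it was at 8.80 to 255 CPM (median 72.5 CPM) in Tconv and at 0 to 369.6 CPM (median 132 CPM) in Tregs. Tregs and Tconv overlapped in both tissues, and 5 hypothalamic Treg libraries lay below all Tconv libraries while 5 lay above. The difference was called in the rest of the brain (1.76 ± 0.30, adjusted p = 0.000175) but not in the hypothalamus with all libraries (0.82 ± 0.85, adjusted p = 0.690) or without the 4 libraries low in Foxp3 (1.25 ± 0.66, adjusted p = 0.225).

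Tnfrsf14 encodes HVEM, which binds both stimulatory TNF ligands and the inhibitory receptor BTLA. Its median was 2.45 CPM (0 to 14.3 CPM) in Tconv and 0 CPM (0 to 32.2 CPM) in Tregs of the rest of the brain, and 6.01 CPM (0 to 24.7 CPM) and 0 CPM (0 to 54.7 CPM) in the hypothalamus. The strains differed in direction in the rest of the brain, where the Balb/c mean was 22.3 CPM in Tregs and 9.13 CPM in Tconv and the C57Bl/6J mean was 0 CPM in Tregs and 1.18 CPM in Tconv. A fit with 1 cell type term for both strains does not show this, and the strain by cell type interaction was not tested. Tnfrsf14 did not pass the test between cell types in the rest of the brain (−2.91 ± 1.59, adjusted p = 0.261) or the hypothalamus (−1.13 ± 1.37, adjusted p = 0.752; −1.66 ± 1.56, adjusted p = 0.607, without the 4 libraries low in Foxp3). Pool 42_46, at 27.3 CPM, was the only Balb/c SD Treg library of the rest of the brain above the floor. Leaving it out gave −5.24 ± 1.65 (adjusted p = 0.0253) in the rest of the brain. The DESeq2 Wald test gave −3.07 ± 1.11 there (adjusted p = 0.0317) with all libraries. Over all edgeR fits with 1 library left out, the value there ran from −5.24 to −1.22, with adjusted p up to 0.691.

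Of the CD28 family, Icos is an activation-induced receptor for ICOSL, and Cd28 is the receptor for CD80 and CD86 on resting T cells. Icos ranged from 153 to 488 CPM (median 381 CPM) in Tconv and from 253 to 1253 CPM (median 602 CPM) in Tregs of the rest of the brain. In the hypothalamus it ranged from 167 to 518 CPM (median 273 CPM) in Tconv and from 0 to 1541 CPM (median 468 CPM) in Tregs. The groups overlapped in both tissues, and 7 of 16 hypothalamic Treg libraries exceeded all Tconv libraries while 4 fell below all of them. The log2 fold change of Icos was 0.84 ± 0.18 (adjusted p = 0.00212) in the rest of the brain and 0.88 ± 0.60 (adjusted p = 0.454) in the hypothalamus, or 1.04 ± 0.51 (adjusted p = 0.187) without the 4 libraries low in Foxp3.

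Cd28 was not called between the cell types in either tissue. In the rest of the brain it ranged from 344 to 758 CPM (median 514 CPM) in Tconv and from 153 to 730.2 CPM (median 513 CPM) in Tregs. Hypothalamic Tconv held 249.7 to 572 CPM (median 507 CPM) and hypothalamic Tregs 0.476 to 1723 CPM (median 356 CPM). The ranges overlapped throughout, and Treg libraries of the hypothalamus lay on both sides of the Tconv range. Its log2 fold change was −0.13 ± 0.20 (95% interval −0.52 to 0.27, adjusted p = 0.772) in the rest of the brain and −0.00 ± 0.42 (−0.83 to 0.83, adjusted p = 0.999) in the hypothalamus, or 0.07 ± 0.30 (adjusted p = 0.946) without the 4 libraries low in Foxp3.

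Cd40lg, the ligand by which helper T cells activate B cells and dendritic cells, was the single gene of the 9 that edgeR called lower in Tregs. It ranged from 373 to 566 CPM (median 489 CPM) in Tconv and from 0 to 181 CPM (median 45.1 CPM) in Tregs of the rest of the brain. In the hypothalamus it ranged from 353 to 633 CPM (median 441 CPM) in Tconv and from 0 to 439 CPM (median 0.232 CPM) in Tregs. Every Treg library of the rest of the brain lay below all Tconv libraries, as did all hypothalamic Treg libraries except 1. Cd40lg differed by −3.86 ± 0.75 (adjusted p = 0.000829) in the rest of the brain and −4.20 ± 1.15 (adjusted p = 0.00912) in the hypothalamus. Leaving out the 4 libraries low in Foxp3 gave −3.52 ± 1.09 (adjusted p = 0.0224), and the DESeq2 Wald test gave −4.10 ± 0.94 in the hypothalamus with no adjusted p.

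**Figure D2:**
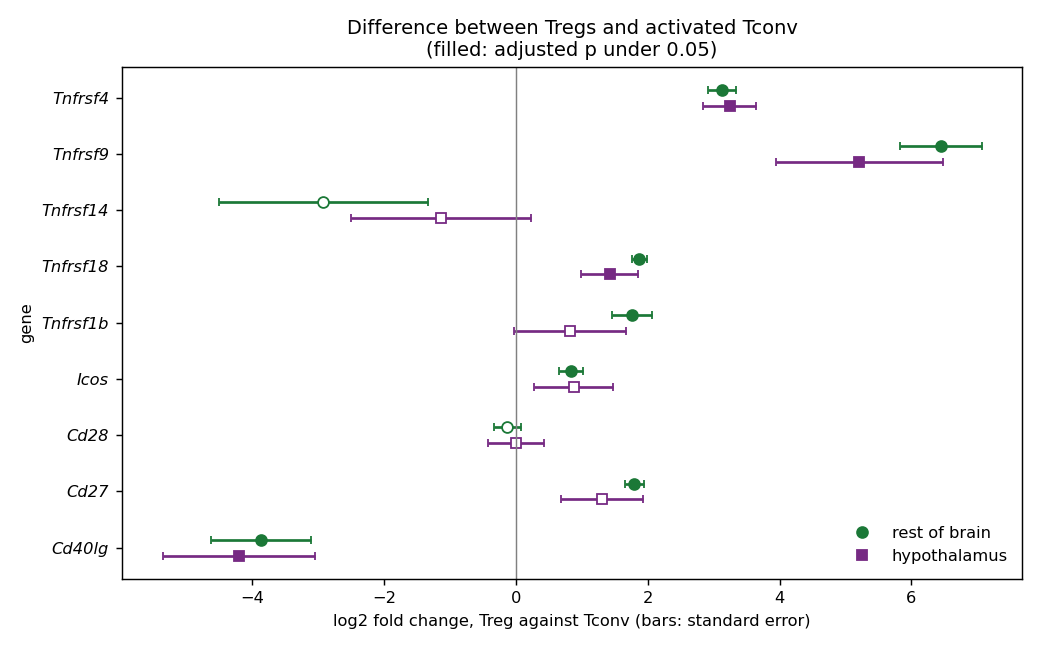
Log2 fold change of each gene between Tregs and activated Tconv (x axis) in the rest of the brain (circles, 14 against 13 libraries) and the hypothalamus (squares, 16 against 16 libraries). Bars are standard errors and filled symbols have an adjusted p under 0.05: Tnfrsf4, Tnfrsf9, Tnfrsf18 and Cd40lg in both tissues, and Tnfrsf1b, Icos and Cd27 in the rest of the brain.

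Whether the difference between Tregs and Tconv itself differed between the tissues was tested as an interaction. None of the 9 genes passed, where 9.48% of the 14727 genes tested did; the count at an unadjusted p under 0.05 was also 0 for the 9 genes, the DESeq2 Wald test called 0 and limma-voom called 2 of them. For the genes called in the rest of the brain alone, the interaction was −0.33 ± 0.65 for Cd27 (adjusted p = 0.911), −0.81 ± 0.92 for Tnfrsf1b (adjusted p = 0.770) and 0.25 ± 0.69 for Icos (adjusted p = 0.947). A difference between the tissues in these genes was thus not shown. The limma-voom calls were Tnfrsf1b (−2.43 ± 0.85, adjusted p = 0.0200) and Cd40lg (−3.51 ± 1.28, adjusted p = 0.0254), the latter at 0.05 in edgeR (95% interval −2.29 to 2.40, adjusted p = 1). Also without the 4 libraries low in Foxp3, edgeR called 0 of the 9 genes. The median over all genes tested was −0.17 under TMM scaling, −0.28 with total counts and −0.36 with DESeq2 size factors. In limma-voom it was −1.53.

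Next, the hypothalamus was compared with the rest of the brain within each cell type. In Tconv, 2 of the 9 genes were lower in the hypothalamus and 0 were higher, where 17.5% of the 12803 genes tested were called (720 higher, 1517 lower). Tnfrsf4 had medians of 99.1 and 141 CPM and Icos of 273 and 381 CPM in the hypothalamus and elsewhere in the brain. Both ranges overlapped widely. The log2 fold change was −0.47 ± 0.15 for Tnfrsf4 (adjusted p = 0.0260) and −0.40 ± 0.14 for Icos (adjusted p = 0.0468). Scaling by total counts moved the median of all genes from −0.11 to −0.01 and ended both calls (Tnfrsf4 −0.37 ± 0.14, adjusted p = 0.0696; Icos −0.30 ± 0.13, adjusted p = 0.128). With the pool as a replicate block, 116 genes and 0 of the 9 were called (Tnfrsf4 −0.63 ± 0.17, adjusted p = 0.0657; Icos −0.51 ± 0.18, adjusted p = 0.0973). The call of Icos also ended without any 1 of 18 of the 29 libraries, at adjusted p = 0.0506 to 0.0958.

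In Tregs, 0 of the 9 genes were called between the tissues, where 5.58% of the 12571 genes tested were called (11 higher, 690 lower). No gene of the 9 had an unadjusted p under 0.05 in edgeR, the DESeq2 Wald test called 0 and limma-voom called 1, Tnfrsf9 (−2.52 ± 0.90, adjusted p = 0.0300). The median over all genes tested was −2.23 in limma-voom and −0.88 in edgeR. In edgeR the Tnfrsf9 value was −1.23 ± 0.71 (adjusted p = 0.416). The other values ran from −0.72 ± 0.87 for Tnfrsf1b to 0.98 (95% interval −1.77 to 3.73) for Tnfrsf14, and the tissues overlapped for each gene. The spread was wider in the hypothalamus for Tnfrsf18, whose SD was 597 CPM there and 287 CPM in the rest of the brain. Without the 4 libraries low in Foxp3, 0 of the 9 were called, and with the pool as a replicate block no gene at all was called.

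Between strains, Tnfrsf14 was mostly higher in Balb/c than in C57Bl/6J libraries, with overlap in some of the comparisons. In hypothalamic Tconv, Tnfrsf14 ranged from 9.78 to 24.7 CPM (median 18.7 CPM) in 8 Balb/c libraries and from 0 to 2.25 CPM (median 0 CPM) in 8 C57Bl/6J libraries. Tconv of the rest of the brain held 2.45 to 14.3 CPM (median 9.42 CPM) in 6 Balb/c libraries and 0 to 4.93 CPM (median 0.628 CPM) in 7 C57Bl/6J libraries. The strains did not overlap in the hypothalamus, and 5 of 6 Balb/c libraries exceeded all C57Bl/6J libraries in the rest of the brain. In Tregs of the rest of the brain, 6 Balb/c libraries ranged from 0.0549 to 32.2 CPM (median 26 CPM), whereas Tnfrsf14 had no count in any of 8 C57Bl/6J libraries. Against the floor of 3 counts per library, the Balb/c mean was at least 135-fold higher. The lowest Balb/c library there was itself under the floor. Hypothalamic Tregs held 0 to 54.7 CPM (median 9.21 CPM) in 8 Balb/c libraries and 0 to 1.74 CPM in 8 C57Bl/6J libraries, and 3 Balb/c and 7 C57Bl/6J libraries had no count.

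**Figure D3:**
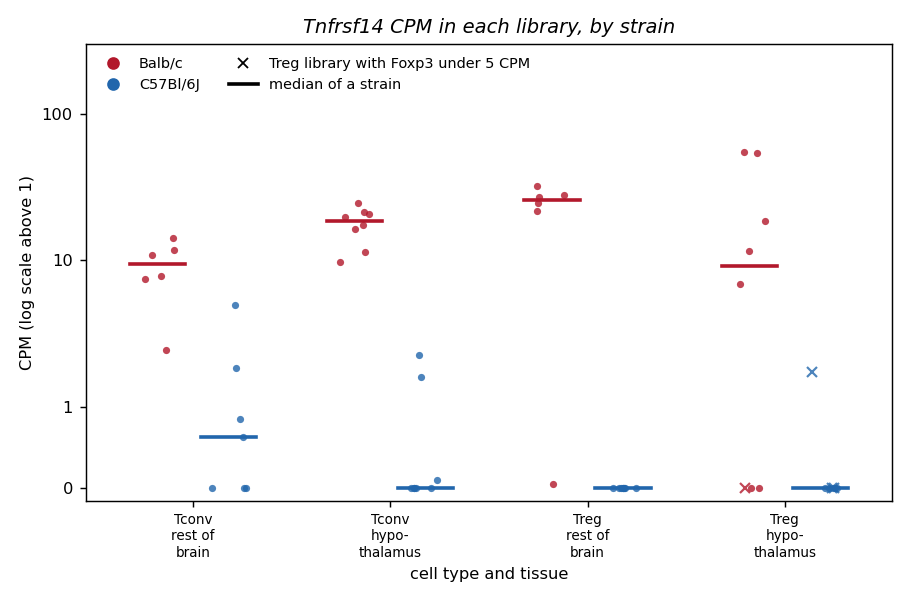
CPM of Tnfrsf14 in each library of Balb/c (red) and C57Bl/6J (blue) mice, on an axis that is logarithmic above 1, by cell type and tissue. Short lines are the medians of a strain; in Tregs of the rest of the brain every C57Bl/6J library was at 0, and in hypothalamic Tconv the lowest Balb/c library held 9.78 CPM and the highest C57Bl/6J library 2.25 CPM.

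The test across genes called Tnfrsf14 in 1 of these 4 comparisons. In Tconv of the rest of the brain, 2 of the 9 genes were higher and 2 were lower in Balb/c, where 23.6% of the 12259 genes tested were called. Tnfrsf14 differed by 3.77 ± 1.25 (adjusted p = 0.0357) and Tnfrsf4 by 0.64 ± 0.18 (adjusted p = 0.0157), while Tnfrsf9 fell by 2.59 on the log2 scale (SE 0.75, adjusted p = 0.0176) and Tnfrsf1b by 0.79 (SE 0.27, adjusted p = 0.0431). Tnfrsf9 held 0.265 to 5.11 CPM in Balb/c and 5.36 to 69.1 CPM in C57Bl/6J, without overlap, whereas the strains overlapped in Tnfrsf4 (102 to 208 CPM and 72.4 to 169 CPM) and Tnfrsf1b (34.2 to 55.4 CPM and 29.6 to 143 CPM). Each of these calls ended when certain single libraries were left out, and limma-voom did not call Tnfrsf1b (−0.68 ± 0.30, adjusted p = 0.0951). Tnfrsf14 lost its call without any 1 of 9 of the 13 libraries (adjusted p = 0.0515 to 0.0625), Tnfrsf1b without any 1 of 8 (adjusted p = 0.0564 to 0.116), Tnfrsf9 without the C57Bl/6J HFHS pool 33_37 (−2.15 ± 0.83, adjusted p = 0.0807) and Tnfrsf4 without the Balb/c SD pool 32_36 (0.56 ± 0.20, adjusted p = 0.0538).

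Scaling mattered for this comparison. With TMM factors 1496 genes were higher and 1395 lower in Balb/c, and with total counts 1006 were higher and 2075 lower, while the median over all genes moved from −0.03 to −0.30. Under total counts Tnfrsf4 was at 0.38 ± 0.20 (adjusted p = 0.195) and was not called, and Cd27 was at −0.59 ± 0.16 (adjusted p = 0.0109) and was called lower. With DESeq2 size factors in edgeR, Tnfrsf1b was at −0.75 ± 0.27 (adjusted p = 0.0560).

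In hypothalamic Tconv, 0 of the 9 genes were called between strains, where 2.1% of the 10848 genes tested were called. Tnfrsf14 and Icos had an unadjusted p under 0.05, and Tnfrsf14, at 5.20 ± 1.39, missed the threshold (adjusted p = 0.0633). It was called by the DESeq2 Wald test (5.21 ± 1.11, adjusted p = 0.000147), by limma-voom (7.58 ± 0.99, adjusted p = 6.6e-05), and in edgeR without the C57Bl/6J HFHS pool 72_76 (6.75, adjusted p = 0.0234) or the C57Bl/6J SD pool 11_15 (6.72 ± 1.62, adjusted p = 0.0351). In Tregs of the rest of the brain, edgeR called 0 of the 9 genes, where 0.3% of the 11679 genes tested were called, with an adjusted p of 0.0967 for Tnfrsf14, the single gene of the 9 with an unadjusted p under 0.05. The DESeq2 Wald test and limma-voom each called Tnfrsf14 there (adjusted p = 7.2e-09 and 0.000209). In hypothalamic Tregs, edgeR called 0 of the 9, where 0.0389% of the 7709 genes tested were called. Tnfrsf14 alone had an unadjusted p under 0.05, with a log2 fold change of 7.94 (95% interval 1.65 to 14.23, adjusted p = 1) against a C57Bl/6J group of 3 counts in all; the DESeq2 Wald test called it (adjusted p = 0.0151) and limma-voom called 0 of the 9. Without the 4 libraries low in Foxp3 its adjusted p was 0.536. Whether the strain difference of Tnfrsf14 differed between cell types or tissues was not tested.

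The diet comparison gave no call in the 9 genes. HFHS against SD was tested within each cell type and tissue with strain as a covariate, and edgeR called 0 of the 9 and 0% of all genes in hypothalamic Tconv (10848 tested), Tconv of the rest of the brain (12259), hypothalamic Tregs (7709) and Tregs of the rest of the brain (11679). At an unadjusted p under 0.05 there were 405, 594, 213 and 850 genes, and among the 9 genes only Icos in hypothalamic Tconv. The DESeq2 Wald test called 15, 12, 182 and 326 genes, limma-voom called 0, 1, 4 and 16, and neither called any of the 9 genes. Icos in hypothalamic Tconv had medians of 287 CPM under HFHS and 238 CPM under SD (8 libraries each), with a log2 fold change of 0.41 ± 0.19 (adjusted p = 1), and the diets overlapped.

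Cd40lg in Tregs had the largest fitted diet differences of the 9 genes. In Tregs of the rest of the brain, Cd40lg ranged from 2.80 to 181 CPM (median 73.4 CPM) in 8 HFHS libraries and from 0 to 43.1 CPM (median 7.46 CPM) in 6 SD libraries. In hypothalamic Tregs the ranges were 0 to 439 CPM (median 12.9 CPM) and 0 to 28.3 CPM (median 0.188 CPM). The diets overlapped in both tissues. The log2 fold change was 2.31 ± 1.37 (95% interval −0.38 to 4.99, adjusted p = 0.979) in the rest of the brain and 3.28 ± 2.54 (−1.69 to 8.26, adjusted p = 1) in the hypothalamus, or 2.58 ± 2.80 (adjusted p = 1) without the 4 libraries low in Foxp3. With 1 library left out at a time, Cd40lg ran from 1.45 to 4.93 in hypothalamic Tregs and from 2.01 to 3.06 in Tregs of the rest of the brain. In hypothalamic Tconv the diet difference was −0.06 for Tnfrsf18 (95% interval −0.33 to 0.22) and 0.05 for Cd40lg (−0.21 to 0.32). The intervals in hypothalamic Tregs were wider, as for Cd27 at 0.24 (−2.06 to 2.55), so that a several-fold change in either direction lay within them. In hypothalamic Tregs the median over all genes was 0.20 with TMM factors and 0.03 with DESeq2 size factors.

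In the pilot experiment each condition was 1 library, so that differences have no replicate check and describe these libraries. Folds are ratios of size-factor-normalized reads for genes whose normalized reads exceed 20 on either side, and their intervals cover counting error only. Between Tregs and CD44low T cells under SD, 2 of 8 such genes were over 2-fold and 3 were under 0.5-fold, where 79.2% of the 6513 genes compared passed either limit. Under HFHS the numbers were 2 and 2 of 8, where 73.4% of 6062 genes passed. These shares show how far single libraries of this depth lie apart.

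Tnfrsf4 had 114 counts in CD44low T cells and 1228 in Tregs under SD, and 122 and 1732 under HFHS. The ratio was 27.8 (95% interval 22.9 to 34.0) under SD and 17.9 (14.9 to 21.7) under HFHS. Tnfrsf18 had 593 and 2041 counts under SD, with a ratio of 8.89 (8.11 to 9.75), and 1280 and 1851 counts under HFHS, with a ratio of 1.82 (1.70 to 1.961). Both were thus higher in the Treg library on either diet. Cd40lg had 1827 and 491 counts under SD and 1316 and 263 under HFHS, with ratios of 0.694 (0.627 to 0.767) and 0.252 (0.220 to 0.288). Tnfrsf14 went from 214 to 7 counts under SD, a ratio of 0.0845 (0.0336 to 0.177), and from 300 to 592 under HFHS, a ratio of 2.49 (2.16 to 2.87) that was 1.93 with size factors over these 2 libraries. Cd28 had 3571 counts in the CD44low and 1 in the Treg library under SD. Tnfrsf1b, at 80 and 163 counts in the CD44low libraries, had none in either Treg library, and Tnfrsf9 had 74 counts in the CD44low SD library and none in the others of these 4. Foxp3 itself had 93 counts in the SD and 184 in the HFHS Treg library, and 241 and 3 in the CD44low libraries, while the Treg marker Ikzf2 had 3513 and 3111 counts in the Treg and 29 and 1 in the CD44low libraries.

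Between diets, 6 of 8 genes were over 2-fold and 0 under 0.5-fold in CD44low T cells, where 61.9% of the 6686 genes compared passed either limit. Tnfrsf9 was left out by the limit of 20 normalized reads. It had 74 counts (19.7 normalized reads) under SD and 0 under HFHS. The ratios of HFHS to SD were 3.68 (3.33 to 4.06) for Tnfrsf18, 3.47 (2.64 to 4.595) for Tnfrsf1b, 3.20 (2.75 to 3.71) for Icos, 3.08 (2.88 to 3.30) for Cd27, 2.39 (1.998 to 2.86) for Tnfrsf14 and 2.01 (1.92 to 2.10) for Cd28, the last at 1.80 when scaled by total counts. Over all genes compared there, 1661 were over 2-fold and 2475 under 0.5-fold. In the Treg libraries, 4 of 7 genes were over 2-fold and 1 was under 0.5-fold, where 80.5% of 5445 genes passed. Tnfrsf14 had 592 counts under HFHS and 7 under SD, with a ratio of 70.4 (34.0 to 176). In hypothalamic Tregs of the second experiment Tnfrsf14 was not called by diet. Its log2 difference there ran from −2.95 to 0.50 with 1 library left out at a time. Icos had 726 counts under HFHS and 169 under SD in the pilot Treg libraries, with a ratio of 3.58 (3.02 to 4.25). Cd28 had 2506 counts under HFHS and 1 under SD, which is within the floor, so that the ratio of 2086 (374 to 82431) is set by 1 count, and the replicated libraries of the second experiment showed no call for Cd28 by diet. Cd27 had a ratio of 2.34 (2.14 to 2.56), which was 1.71 with total counts, and Cd40lg of 0.446 (0.382 to 0.519).

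The remaining pilot libraries were given as counts alone. The ob/ob CD4+CD25− library held counts for all 9 genes, from 10 for Tnfrsf14 to 1676 for Cd28. The matching WT library, with a total of 220336, held 323 counts of Cd28, 327 of Tnfrsf18, 38 of Tnfrsf1b and none of the other genes. In the ob/ob CD4+CD25++ library, with a total of 99925, 180 counts of Cd28, 60 of Tnfrsf1b, 52 of Cd40lg, 50 of Tnfrsf18 and 10 of Cd27 were found. The WT CD4+CD25++ library held 458 counts of Tnfrsf1b, 7 of Cd27 and none of the others, with the microglial gene P2ry12 at 99908 counts and Cd4 at 0.

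Beyond the 9 genes, 81 other genes of the pathway were followed: ligands, other TNF receptors, CD28 family inhibitors, adaptors and NF-kB subunits, and the CD28 signal. In Tregs against Tconv of the rest of the brain, 15 of 76 tested were higher and 11 lower (34.2%, against 15.4% of all genes tested), with a median of 0.18 against −0.28 for all genes tested. Of the 26 adaptor and NF-kB genes, 11 were higher and 0 lower (median 0.86). In the hypothalamus 1 was higher and 1 lower (median −0.54), and the interaction called 0 of the 26, so that a difference between the tissues was not shown. Other TNF ligands gave 0 higher and 4 lower of 6 tested in the rest of the brain. The largest increases were in the inhibitory receptor Ctla4 (3.10 ± 0.16, adjusted p = 5.8e-14), the NF-kB subunit Nfkb2 (2.57 ± 0.46, adjusted p = 0.000397) and the NF-kB regulator Tnip1 (1.95 ± 0.33, adjusted p = 0.000182). The largest decreases were in Tnfsf14, the ligand of Tnfrsf14 (median 16.1 CPM in Tconv and 0 in Tregs, adjusted p = 0.000791), in the BAFF receptor Tnfrsf13c (5.02 and 0 CPM, adjusted p = 0.00589) and in Tnfsf4, the ligand of Tnfrsf4, which had no count in any Treg library and reached 13.1 CPM in Tconv (adjusted p = 0.00620).

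In the hypothalamus 3 of 68 were higher and 8 lower in Tregs (16.2%, near the 13.8% of all genes tested), with a median of −0.81 against −0.96. Leaving out the libraries low in Foxp3 gave 3 and 8 of 69 (15.9% against 18.01% of all genes). Ctla4 (2.83 ± 0.51, adjusted p = 0.000158), the death receptor Fas (2.22 ± 0.65, adjusted p = 0.0159) and the NF-kB inhibitor Nfkbia (1.35 ± 0.34, adjusted p = 0.00429) were the higher ones, and all 3 stayed called without those libraries (adjusted p = 1.2e-06, 0.00590 and 0.00211). Fasl, the ligand of Fas, had a median of 287 CPM in Tconv and at most 0.662 CPM in any Treg library (adjusted p = 1.4e-10; 5.8e-10 without them). Relt (medians 20.3 and 0 CPM, adjusted p = 0.00148) and Tnfsf14 (16.5 and 0 CPM, adjusted p = 0.00127) were also called lower, although single Treg libraries reached 92.1 CPM of Relt and 121 CPM of Tnfsf14, above every Tconv library (at most 47.4 and 55.1 CPM). Their adjusted p was 0.00929 and 0.0204 without the 4 libraries. The interaction called 4 higher and 2 lower of 76 (7.89% against 9.48% of all genes), with a median of −0.50 against −0.17. With these libraries left out it called 1 in each direction, Tnfrsf21 (adjusted p = 0.0142) and Fasl (adjusted p = 2.7e-05). That was 2.63% of 76 tested, against 8.90% of all genes.

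Between tissues, 10 of 74 pathway genes were higher and 4 lower in hypothalamic Tconv (18.9%, near the 17.5% of all genes tested; median −0.01 against −0.11), led by the CD28 signalling exchange factor Vav1 (1.15 ± 0.19, adjusted p = 0.000173), Nfkb2 (1.10 ± 0.39, adjusted p = 0.0446) and the NF-kB subunit Rela (0.89 ± 0.22, adjusted p = 0.00522). The largest decreases were in genes with medians at or near 0 CPM in both tissues, Tnfsf4, Tnfrsf11a and Tnfrsf21. With the pool as a replicate block, 116 of all 12803 genes tested were called between tissues in Tconv. In Tregs 0 of 71 were higher and 4 lower in the hypothalamus (5.63% against 5.58% of all genes; median −0.82 against −0.88), led by Relt, Fasl and Icosl. Of these, only Fasl stayed called without the 4 libraries low in Foxp3 (adjusted p = 0.0209, with Relt at 0.0522 and Icosl at 0.0909). In that fit 2 of 69 were lower (2.90%, against 7.89% of all genes). With the pool as a replicate block none was called, Fasl included. Between strains, 2 of 72 were higher in Balb/c Tconv of the rest of the brain, Ltb (0.86 ± 0.14, adjusted p = 0.000230) and Fas (0.73 ± 0.25, adjusted p = 0.0421), and 19 were lower, led by Cd70, which reached only 3.78 CPM in any library, the inhibitory receptor Pdcd1 (−3.18 ± 0.69, adjusted p = 0.00226) and Tnip1 (−1.93 ± 0.25, adjusted p = 4.7e-05), with a median of −0.52 against −0.03 (29.2% called against 23.6% of all genes). In hypothalamic Tconv, Ltb was higher (0.78 ± 0.17, adjusted p = 0.0153) and Fasl lower (−0.57 ± 0.15, adjusted p = 0.0459) among 66 tested (3.03% against 2.1% of all genes). Between strains in Tregs, and between diets in either cell type, edgeR called none of the pathway genes tested (52 to 72), also without the 4 libraries low in Foxp3.

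Over the means of the 16 groups, the genes were set against all genes of at least 5 CPM by the correlation of log2 CPM. The groups share tissue, strain and pools, so these values only describe. Tnfrsf4 ran closest to Foxp3 (r = 0.95), Ctla4 and Izumo1r, and Tnfrsf9 to Ikzf2 (r = 0.93), Foxp3 and Izumo1r. Tnfrsf18 and Cd27 both had Tspan32 as nearest gene (r = 0.95 and 0.93) and reached 0.92 with each other. Tnfrsf1b was nearest to Sigirr, S1pr1 and Stat5b (r = 0.92 to 0.90) and Cd28 to Lman2, Snrpb2 and Ypel3 (r = 0.93 to 0.92). Neither Tnfrsf14 (r = −0.39 to 0.28) nor Cd28 (r = −0.15 to 0.38) ran close to another of the 9 genes. Tnfrsf14 had Rbm45 (r = 0.97) and Xist (r = 0.92) among its nearest genes, beside 1 RefSeq name that could not be matched to a symbol. Cd40lg was nearest to Cmc2, Map3k5 and Gab3 (r = 0.98 to 0.97), and had r = −0.82 with Tnfrsf4.

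The genes also share positions that were not used to choose them. In the RefSeq annotation of GRCm38.p6, 5 of the 9 lie on chromosome 4, compared with 2 of the 19 other TNF receptors followed here (Tnfrsf8 and Tnfrsf25). Tnfrsf4 (chr4:156013595-156016613) and Tnfrsf18 (chr4:156026322-156028894), the most abundant pair in Tregs, are separated by 9708 bases that hold 1 annotated gene. Tnfrsf14 lies at chr4:154918487-154928620, Tnfrsf9 at chr4:150920155-150946104 and Tnfrsf1b at chr4:145212368-145246870. Cd28 (chr1:60746388-60773359) and Icos (chr1:60960773-61000322) flank Ctla4 (chr1:60909025-60915832). Cd27 lies at chr6:125232620-125237136 and Cd40lg at chrX:57212143-57224042.

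Because Tnfrsf4, Tnfrsf18 and Tnfrsf9 were higher together in Tregs, the 250 bases before the annotated starts were searched on both strands for the NF-kB consensus and for the AP-1 site TGACTCA, whose reverse complement is TGAGTCA. RefSeq sequences were at hand for 6 of the 9 genes, with 2 starts for Tnfrsf9, while Icos, Cd28 and Cd40lg had none. Some of these starts lie inside the gene positions given above. The Tnfrsf14 window (chr4:154928078-154928327) and that of the second Tnfrsf9 start lay wholly within their genes, and those of Tnfrsf4 and Cd27 partly. The NF-kB consensus is present in 7.25% and the AP-1 site in 4.46% of the 32851 promoter windows of this length. Of the windows of these genes, only that of the second Tnfrsf9 start held a match, and it held both motifs. A stretch of it is shown with the NF-kB match in capitals, from GRCm38.p6, plus strand, chr4:150927947-150927976, within an annotated 5′ untranslated exon of another Tnfrsf9 transcript; the match ends 33 bases before the start.
Tnfrsf9, second start: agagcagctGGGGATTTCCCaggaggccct
The window before the first Tnfrsf9 start (plus strand, chr4:150919905-150920154), which lies outside every annotated exon, held neither and is shown beside it for comparison.
Tnfrsf9, first start: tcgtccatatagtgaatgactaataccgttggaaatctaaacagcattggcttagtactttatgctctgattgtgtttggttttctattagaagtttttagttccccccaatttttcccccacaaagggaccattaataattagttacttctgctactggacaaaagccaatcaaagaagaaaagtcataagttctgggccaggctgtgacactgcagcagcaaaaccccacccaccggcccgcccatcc
The absence of a match says only that these letters are not in this window. The libraries do not tell which start was used, and the deposited counts divided Tnfrsf9 over 3 transcript names with 58.2%, 41.8% and 0.0139% of its estimated counts.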

How the data were processed

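The members and gene lists were chosen with earlier results of these data known. Pilot counts were deposited by the authors, who aligned reads to mm10 with BWA and counted them per symbol with HTSeq. Estimated counts and TPM of the second experiment were made by the authors with Salmon and deposited per RefSeq name; the labels give no tool versions, and the paper names version 3.16 of nf-core/rnaseq for the repeated Tconv sequencing. Of 35034 names 34850 were matched (99.5%), and estimated counts were summed to 24471 genes and rounded; deposited TPM was summed likewise. A gene entered a test when it exceeded 10 counts in k libraries or more, where k is the smallest number of pools that share cell type, tissue, strain and diet in that comparison, and was tested with edgeR 4.0.16 (TMM, quasi-likelihood, Benjamini-Hochberg adjusted p under 0.05), beside DESeq2 1.42.0 and limma 3.58.1, in R 4.3.3 and Python 3.11.15. Pathway genes are named where they are the largest called differences in a direction. Recurring pool labels were read as the same mice, which the labels do not state. Residual correlation within pairs ran from −0.0444 to 0.131 over 4 comparisons, with 2 of 12 pairs over 0.1 for Tregs against Tconv in the rest of the brain and 0 in the other 3 comparisons.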

Additional observations from a re-analysis of the deposited data

Results flagged for a closer look

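In groups of 4 pools, a library far from its group occurs by chance in about 1 in 20 groups. The 9 genes gave 108 such groups, of which 14 had such a library, and groups of 2 or 3 pools were not tested. That rate does not hold where the other 3 pools are at 0, as for 4 of the 14, since any count then stands apart. Tnfrsf9 was 0 CPM in the C57Bl/6J SD hypothalamic Tconv pool 67_71 (others 11.4 to 18.9) and 5.26 in the Balb/c SD hypothalamic Tconv pool 42_46 (others 0). Tnfrsf14 was 2.25 in the C57Bl/6J HFHS pool 72_76 (others 0 to 0.104), 1.60 in the C57Bl/6J SD pool 11_15 (others 0) and 9.78 in the Balb/c SD pool 32_36 (others 19.9 to 21.4) of hypothalamic Tconv. In hypothalamic Tregs it was 1.74 in the C57Bl/6J SD pool 43_47 (3 counts, which is within the floor; others 0) and 54.7 in the Balb/c SD pool 37_41 (others 0). Tnfrsf18 was 0.195 in the Balb/c SD hypothalamic Treg pool 32_36 (others 727 to 2091). Tnfrsf1b was 266 in the Balb/c HFHS Treg pool 26_31 of the rest of the brain (others 196 to 200.5) and 0.228 in the Balb/c HFHS hypothalamic Treg pool 16_20 (others 126 to 173). Cd28 was 153 in the C57Bl/6J SD Treg pool 11_15 of the rest of the brain (others 655 to 730.2) and 364 in the C57Bl/6J HFHS hypothalamic Tconv pool 72_76 (others 536 to 572). Cd40lg was 23.4 in the C57Bl/6J SD hypothalamic Treg pool 67_71 (others 0 to 0.0822) and 536 in the Balb/c SD hypothalamic Tconv pool 42_46 (others 428 to 442).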

How the results depend on the processing

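The leave-out of the 4 libraries low in Foxp3 was chosen after seeing the data. Numbers of genes called moved with the tool, the filter and the replicate block. For Tregs against Tconv they were 2648 with DESeq2, 7448 with limma-voom and 5528 with the pool as a replicate block in the hypothalamus, and 5120 with a filter of more than 10 counts in total in the rest of the brain. Between tissues in Tconv, total counts called 0 of the 9 genes, limma-voom 4 and the replicate block 0, and the looser filter called 6965 genes and the block 116. Between tissues in Tregs, limma-voom called 1 of the 9, and DESeq2 called 1840 genes, limma-voom 4278 and the block 0. Between strains, DESeq2 and limma-voom each called 1 of the 9 in hypothalamic Tconv (545 genes with DESeq2) and 1 in Tregs of the rest of the brain (298 and 123 genes), and DESeq2 called 1 in hypothalamic Tregs (250 genes; 11 with the looser filter, 13 with limma-voom). Between diets, DESeq2 called 15 genes in hypothalamic Tconv, 12 in Tconv of the rest of the brain (limma-voom 1), 182 in hypothalamic Tregs (looser filter 39, limma-voom 4) and 326 in Tregs of the rest of the brain (limma-voom 16). For the interaction, the looser filter called 2323 genes and limma-voom 5888, with 2 of the 9, and Cd40lg reversed to −3.51. DESeq2 gave no adjusted p for 4 results of the 9 genes. In the pilot, asking for 20 reads in both libraries left 1509 genes past the limits between diets in CD44low T cells, 976 in Tregs (3 of the 9), and 1232 (2 of the 9) and 1361 between cell types under SD and HFHS. Leaving out 1 library at a time gave 3 to 4 of the 9 for Tregs against Tconv in the hypothalamus and 7 to 8 in the rest of the brain, 1 to 2 between tissues in Tconv (1 without any 1 of 18 of the 29 libraries), 0 to 1 between strains in hypothalamic Tconv, 1 to 4 in Tconv of the rest of the brain and 0 in the others. Genes called between tissues in Tregs ran from 267 to 1466.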
